A study of Mus musculus with 9 samples.

Results

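The IL-12 family of cytokines was followed through 5 genes, Il12a, Il12b, Il23a, Il27 and Ebi3, in dendritic cells sorted from mouse spleen. They were chosen by name, as the transcript clusters whose platform annotation gives 1 of these symbols, and all 5 were found among 19938 named genes. For each gene the cluster with the highest mean was read. The cells came from mice of strain 129SvEv/Tac, either Batf-/- Batf3-/- (double knockout, DKO) or wild type (WT). The groups were activated DKO cDC2, activated WT cDC2, resting DKO cDC2 and resting WT cDC2, with 2 arrays each, and resting WT cDC1 with 1 array. Activated cells had received 100 ng/ml IFN-gamma over 1 h, followed by LPS of E. coli at 1 µg/ml over 3 h. Nothing in the labels tells if the paired arrays come from different mice, and the p-values then rest on a spread that may be technical. Whether resting cells were cultured is not stated.

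The cytokines of this family are pairs of different chains. IL-12 joins the products of Il12a and Il12b, IL-23 those of Il23a and Il12b, IL-27 those of Il27 and Ebi3, and IL-35 those of Il12a and Ebi3. Dendritic cells and macrophages make IL-12, IL-23 and IL-27 after sensing microbes, and IFN-gamma is known to raise transcription of IL-12 genes. IL-12 drives T cells and NK cells to make IFN-gamma, IL-23 sustains T cells that make IL-17, and IL-27 both promotes and restrains T cell responses. cDC1 are known as a main source of IL-12 in mice, while BATF3 is needed for cDC1 to develop.

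Values are log2 of the deposited intensity, and differences are in log2 units with their standard error (SE) from 1 limma fit. A gene was tested where a group mean lay above 5.94, the median of all values of named clusters, and 10728 genes passed. An adjusted p (Benjamini-Hochberg over those genes) below 0.05 was the threshold. Between replicates of a cDC2 group, Pearson's r over genes (not independent of each other) was 0.969 to 0.980. Batf lay between 5.31 and 5.44 on the 4 DKO cDC2 arrays, against 6.74 to 9.07 on the 4 WT cDC2 arrays, and Batf3 between 6.43 and 7.17 in DKO, against 7.58 to 9.92 in WT. The cDC2 label was borne by Sirpa (7.05 in cDC1, against 9.05 to 10.30 on cDC2 arrays) and Irf4 (5.13 in cDC1, against 9.37 to 11.02), while Clec4a4, Cd209a and Clec10a lay below 5.94 on every array and Itgam reached 6.02 at most. The cDC1 label was borne by Xcr1, at 9.33 in cDC1 against 4.42 to 4.73 in cDC2, and Clec9a, at 8.67 against 3.64 to 4.32. Naaa, Itgae, Cd8a and Cadm1 were also highest in cDC1. Tlr3 (6.35 in cDC1, against 5.46 to 7.03) and Irf8 (9.94, against 7.64 to 12.27) were not. These are bulk samples, in which fewer cells of a type and less RNA per cell cannot be told apart.

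Il12b, which codes for the chain shared by IL-12 and IL-23, was above 5.94 on 9 of 9 arrays. It read 10.66 and 10.85 in activated DKO cDC2, 10.93 and 10.59 in activated WT cDC2, 7.82 and 7.68 in resting DKO cDC2, 11.58 in resting WT cDC1, and 8.94 and 8.04 in resting WT cDC2. Every activated array lay above every resting cDC2 array, as in 11.4% of genes tested, and the resting cDC1 array lay above them all. On the linear scale these are intensities of 1622 and 1848, 1954 and 1538, 225 and 205, 3062, and 491 and 263, in the same order of groups. The group means were 10.76 ± 0.13 in activated DKO, 10.76 ± 0.24 in activated WT, 7.75 ± 0.10 in resting DKO and 8.49 ± 0.64 in resting WT cDC2 (SD, n = 2 each), so that cDC1 stood highest and resting DKO cDC2 lowest. The activated groups overlapped. The resting groups did not overlap, but their difference did not pass the test.

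**Figure D1:**
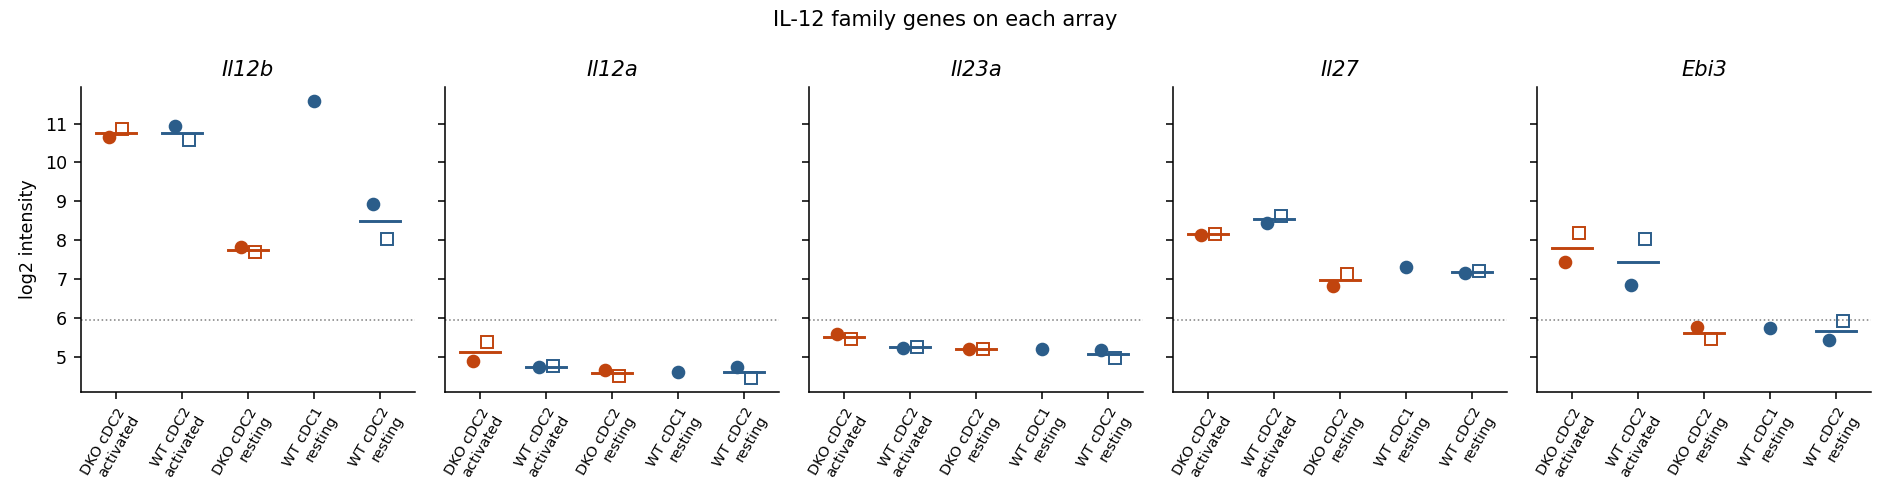
Log2 intensity of each IL-12 family gene on each of the 9 arrays, by group, with filled circles for replicate 1, open squares for replicate 2, bars for group means and a dotted line at the test filter of 5.94. Il12b, Il27 and Ebi3 are higher on all 4 activated cDC2 arrays than on all 4 resting ones, Il12b is highest on the cDC1 array at 11.58, and Il12a and Il23a stay below the dotted line.

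With activation, Il12b rose by 3.01 ± 0.29 in DKO cDC2 (8.05-fold, 95% interval of the log2 difference 2.31 to 3.71, limma adjusted p = 0.00429). In WT cDC2 it rose by 2.27 ± 0.29 (4.83-fold, interval 1.57 to 2.97, limma adjusted p = 0.0110). Of all genes tested, 5.82% were called higher in DKO and 3.97% in WT. The same-numbered arrays differed by 2.85 and 3.17 in DKO and by 1.99 and 2.55 in WT. In the mean of both genotypes the rise was 2.64 ± 0.20 (6.24-fold, limma adjusted p = 0.000932), rank 41 from the highest of 10728, and 10.6% of genes were called higher there. The WT call was lost without WT activated replicate 1 (2.10, limma adjusted p = 0.0574) and without WT activated replicate 2 (2.44, limma adjusted p = 0.0662). The DKO call and the call in the mean of both genotypes held without each array in turn.

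The promoter windows of Il12b and Ebi3, members that moved with activation, are shown with the part that matched a searched motif in capitals. RefSeq sequences of build GRCm38.p6, 250 bases before to 50 after the gene start, were at hand for 3 of the 5 members. Il12b lies at chr11:44399813-44400112 and Ebi3 at chr17:55952373-55952672, both on the plus strand.
Il12b: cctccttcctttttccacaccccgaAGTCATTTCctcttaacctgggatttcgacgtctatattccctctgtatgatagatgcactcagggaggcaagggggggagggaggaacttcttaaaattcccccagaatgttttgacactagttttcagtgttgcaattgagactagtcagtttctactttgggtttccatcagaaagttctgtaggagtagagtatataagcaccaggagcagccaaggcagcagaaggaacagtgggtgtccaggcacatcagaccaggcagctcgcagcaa
Ebi3: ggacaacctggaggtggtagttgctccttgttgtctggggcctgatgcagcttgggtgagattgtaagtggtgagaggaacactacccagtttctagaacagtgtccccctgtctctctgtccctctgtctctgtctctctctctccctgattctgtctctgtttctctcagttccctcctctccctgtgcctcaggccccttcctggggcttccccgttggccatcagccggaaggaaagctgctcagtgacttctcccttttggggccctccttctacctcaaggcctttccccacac
The motifs searched on both strands were GGGANNTTC and GGGANNTCC (NF-kappaB type), GAAANNGAA (IRF type), TGANTCA (AP-1 type), GAAATGANT (AP-1 beside IRF), TTNNGCAA (C/EBP type) and TATAAA. The match in the Il12b window was to GAAATGANT on the reverse strand, 225 to 217 bases before the start, and 1.34% of 32851 promoter windows hold that motif. The Ebi3 window and both Il12a windows held 0 matches. The motifs occur in 3.94%, 4.30%, 8.56%, 7.81%, 1.34%, 10.8% and 13.6% of all windows, in the order given. A match describes letters only, and the absence of one says nothing about a factor.

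Il27 and Ebi3 code for the chains of IL-27, and both read higher on every activated array than on every resting cDC2 array. The same holds for 11.4% of genes tested and for 7.78% of the 19938 genes without the filter. Il27, the cytokine-like chain, read 8.14 and 8.16 in activated DKO cDC2, 8.44 and 8.63 in activated WT cDC2, 6.82 and 7.12 in resting DKO cDC2, 7.31 in resting WT cDC1, and 7.15 and 7.21 in resting WT cDC2. It was above 5.94 on 9 of 9 arrays, and the 4 activated arrays were the 4 highest. It rose by 1.18 ± 0.13 in DKO (2.27-fold, limma adjusted p = 0.00517) and by 1.36 ± 0.13 in WT (2.56-fold, limma adjusted p = 0.00592). In the mean of both genotypes it rose by 1.27 ± 0.09 (2.41-fold, limma adjusted p = 0.000756). Among genes tested, 5.82% were called higher in DKO, 3.97% in WT and 10.6% in the mean. Without WT activated replicate 2 the WT value was 1.26 and did not pass (limma adjusted p = 0.0521).

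Ebi3, the receptor-like chain of IL-27 and IL-35, read 7.43 and 8.18 in activated DKO cDC2 and 6.85 and 8.04 in activated WT cDC2. It read 5.76 and 5.44 in resting DKO cDC2, 5.73 in resting WT cDC1, and 5.43 and 5.91 in resting WT cDC2. Only the 4 activated arrays lay above 5.94, so Ebi3 entered the test through the activated groups alone, and in both activated groups replicate 2 was the higher. In DKO it rose by 2.20 ± 0.43 (4.59-fold, interval 1.15 to 3.24, limma adjusted p = 0.0246). In WT the difference was 1.78 ± 0.43 (3.43-fold, interval 0.73 to 2.82, limma adjusted p = 0.0517), which missed the threshold and passed it with the replicate number as a block (limma adjusted p = 0.00765). The fit with the block called 3791 of 10728 genes in WT, in either direction. The mean of both genotypes rose by 1.99 ± 0.31 (3.97-fold, limma adjusted p = 0.00599). There 10.6% of genes tested, and 5.47% of the 19938 genes without the filter, were called higher. The DKO call was lost without any 1 of its 4 arrays: 2.36 and 2.04 without resting replicates 1 and 2, 2.57 and 1.82 without activated replicates 1 and 2 (limma adjusted p 0.0688 to 0.130). The WT difference passed without WT activated replicate 1 (2.37, limma adjusted p = 0.0475).

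Il12a, which codes for the chain particular to IL-12 (and used by IL-35), and Il23a, the chain particular to IL-23, lay below 5.94 on 9 of 9 arrays, so they were not tested with the other genes. Il12a read 4.89 and 5.37 in activated DKO cDC2, 4.73 and 4.75 in activated WT cDC2, 4.65 and 4.49 in resting DKO cDC2, 4.59 in resting WT cDC1, and 4.73 and 4.45 in resting WT cDC2. Both activated DKO arrays were above the rest. In a fit of all 19938 genes without the filter, activation differed by 0.56 ± 0.17 in DKO (limma adjusted p = 0.130) and 0.15 ± 0.17 in WT (limma adjusted p = 0.696). In the mean of both genotypes it differed by 0.35 ± 0.12 (limma adjusted p = 0.113), which passed without DKO activated replicate 1 alone (0.47, limma adjusted p = 0.0474), and the cDC1 difference was 0.00.

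Il23a read 5.58 and 5.46 in activated DKO cDC2, 5.22 and 5.26 in activated WT cDC2, 5.19 and 5.19 in resting DKO cDC2, 5.19 in resting WT cDC1, and 5.17 and 4.97 in resting WT cDC2. All 4 activated arrays were above all resting ones, by small steps, as in 7.78% of the 19938 genes. In the same fit the mean of both genotypes rose by 0.24 ± 0.06 (limma adjusted p = 0.0477), where 5.47% of all genes were called higher. The parts in DKO (0.32 ± 0.09, limma adjusted p = 0.0916) and WT (0.16 ± 0.09, limma adjusted p = 0.372) did not pass, though DKO did with the replicate block (limma adjusted p = 0.0399). The call in the mean was lost without any 1 of the cDC2 arrays except WT resting replicate 1 (0.19 to 0.27, limma adjusted p 0.0718 to 0.134). At these intensities, which lie below the median of named clusters, the arrays cannot show whether the chains of complete IL-12 and IL-23 were made.

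**Figure D2:**
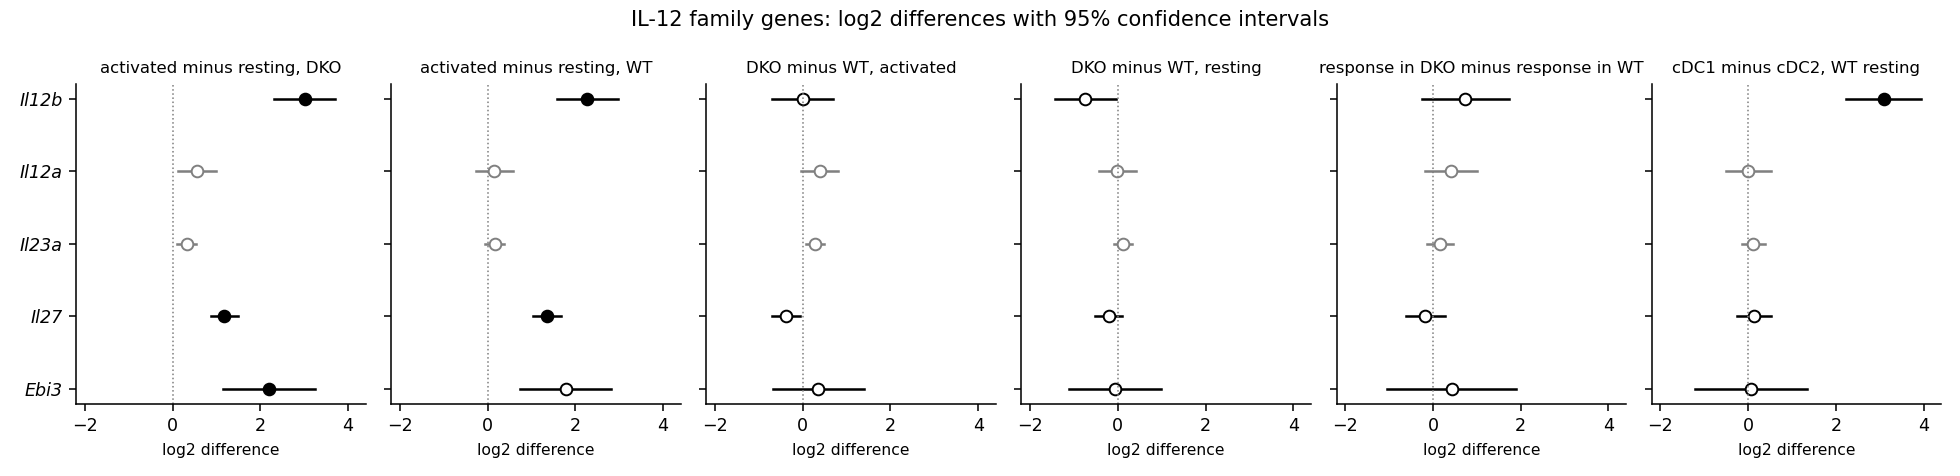
Log2 difference of each IL-12 family gene with its 95% interval in 6 comparisons, one per panel, with filled points past the threshold, open points not past it, and grey points for Il12a and Il23a from the fit without the filter. Activation differences of Il12b, Il27 and Ebi3 lie above 0 in both genotypes, while in the genotype and interaction panels no point is filled. In the cDC1 panel Il12b alone is filled, at 3.09.

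Whether the family depends on BATF and BATF3 was asked by setting DKO against WT cDC2. No member passed in either state, where 0.0186% of genes were called lower and 0 genes higher in each (707 genes at an unadjusted p under 0.05 at rest and 638 after activation). The deleted genes Batf and Batf3 did not pass either, though Batf stood at -1.64 at rest and -2.79 after activation. A member that did not pass may therefore still differ. In activated cells Il12b differed by -0.0017 ± 0.29 between DKO and WT (limma adjusted p = 1.00), and the interval of -0.70 to 0.70 leaves room for a difference in either direction. Same-numbered activated arrays differed by -0.27 and 0.27. At rest Il12b stood at -0.74 ± 0.29 (interval -1.44 to -0.04, limma adjusted p = 0.730), with groups that do not overlap, as in 13.4% of genes on the lower side. That value was -0.29 without WT resting replicate 1 and -1.19 without WT resting replicate 2. Among cDC1 markers, Cadm1, which had the largest difference of the list, read 8.51 and 7.69 in resting DKO, against 9.84 and 8.55 in resting WT, and the summed level of 8 markers was 9.33 to 9.91 in DKO against 9.76 to 10.49 in WT (log2 of the sum). Cadm1 and Irf8 carried most of that sum. The difference between DKO and WT was -1.10 for Cadm1, -0.54 for Itgae and -0.43 for Tlr3. It was 0.20 for Irf8, 0.11 for Cd8a and -0.09 for Naaa. For Xcr1 and Clec9a, which lay below 5.94 on these arrays, it was -0.02 and -0.07. None of the 8 passed the threshold. The part of these 8 markers in the resting Il12b values was not tested.

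Il27 differed between same-numbered DKO and WT arrays by -0.30 and -0.47 in activated cells and by -0.33 and -0.09 at rest. How many of all genes read lower in each such pair was not counted. The activated groups did not overlap, as in 13.5% of genes on the lower side, and differed by -0.38 ± 0.13 (interval -0.70 to -0.07, limma adjusted p = 0.734). The resting groups differed by -0.21 ± 0.13 (limma adjusted p = 0.955). The mean of both states was -0.30 ± 0.09 (limma adjusted p = 0.295, and 0.0606 with the replicate number as a block). The summed level of 6 macrophage markers was also lower in DKO, at 8.92 to 8.99 in activated DKO against 9.34 to 9.37 in activated WT. At rest it was 8.94 to 8.97 in DKO against 9.18 to 9.46 in WT, with 5 of the 6 above 5.94 on some cDC2 array. Adgre1, the highest of the 6, did not differ, with means of 7.37 in activated DKO against 7.36 in activated WT and 7.66 against 7.62 at rest. The others had lower means in DKO in both states. So was the summed level of 5 monocyte markers, at 8.42 to 8.59 in activated DKO against 8.90 to 9.18 in activated WT. At rest it was 8.81 to 9.05 in DKO against 9.07 to 9.56 in WT, with 4 of the 5 above 5.94 on some cDC2 array. Lyz2, Ace and Csf1r had lower means in DKO in both states, Csf1r by little at rest (7.64 against 7.71). Fn1 stood at 5.19 against 5.13 at rest, and Ccr2 at 4.41 against 4.34 after activation, all below 5.94. The mean log2 of 6 markers of plasmacytoid dendritic cells was lower in DKO as well. It was 7.46 and 7.56 in resting DKO against 7.87 and 8.21 in resting WT. After activation it was 7.77 and 7.77 in DKO against 7.99 and 8.03 in WT. Their summed levels overlapped in both states. Ly6d did not have a lower mean in DKO in either state, nor did Siglech after activation. The part of all these markers in the Il27 values was not tested. Ebi3 differed by 0.36 ± 0.43 in activated cells (interval -0.69 to 1.40) and by -0.06 ± 0.43 at rest (interval -1.11 to 0.98). In the fit without the filter, Il23a stood at 0.28 ± 0.09 in activated cells (limma adjusted p = 0.713) and Il12a at 0.39 (limma adjusted p = 0.869), each with both DKO arrays above both WT arrays, as in 13% of the 19938 genes.

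The response to activation was compared directly by an interaction, response in DKO minus response in WT. Il12b stood at 0.74 ± 0.41 (interval -0.25 to 1.73, limma adjusted p = 1.00). Il27 stood at -0.17 ± 0.18 and Ebi3 at 0.42 ± 0.61. By limma 0 of 10728 genes (0%) passed, with 121 at an unadjusted p under 0.05.

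The cDC1 array was set against resting WT cDC2 to see how the family differs between subsets of resting cells, with the lone cDC1 array assumed to vary as the others do. Il12b was higher in cDC1 by 3.09 ± 0.35 (8.53-fold, interval 2.24 to 3.95, limma adjusted p = 0.00472), rank 27 from the highest of 10728, where 7.08% of genes were called higher. The cDC1 value of 11.58 also lay above the 10.59 to 10.93 of the activated cDC2 arrays of both genotypes, a step that was not tested. Leaving out each array in turn gave 2.64 to 3.54, all past the threshold. With only the groups compared in the fit it did not pass (limma adjusted p = 0.219). Il27 (0.13 ± 0.16, limma adjusted p = 0.652) and Ebi3 (0.06 ± 0.53, limma adjusted p = 0.963) did not pass. Il12a and Il23a stood at 0.00 and 0.12 without the filter.

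**Figure D3:**
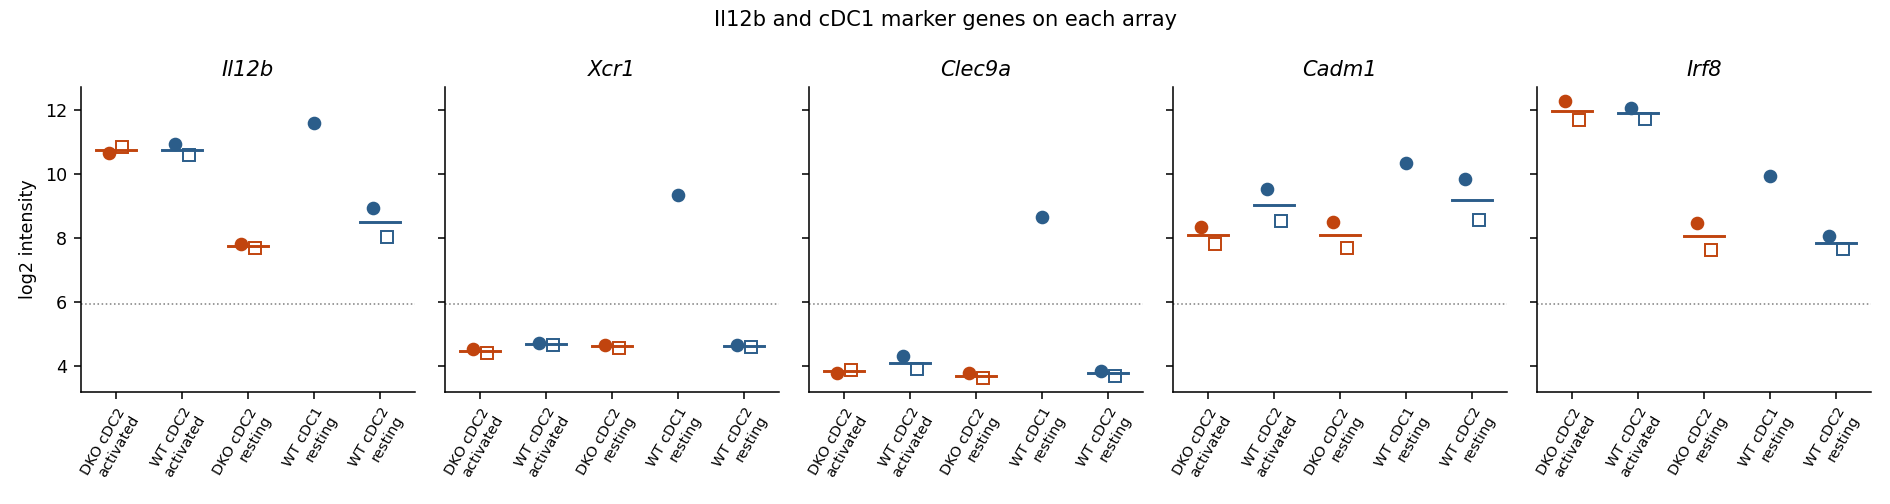
Log2 intensity of Il12b beside the cDC1 marker genes Xcr1, Clec9a, Cadm1 and Irf8 on each array, by group, with filled circles for replicate 1, open squares for replicate 2, bars for means and a dotted line at 5.94. Il12b and Irf8 are high in activated cDC2 and in cDC1, whereas Xcr1 and Clec9a are above the dotted line only in cDC1.

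Markers of cDC1 were read beside the Il12b values of cDC2, since the cDC1 array had the highest Il12b at rest. Xcr1, a chemokine receptor, and Clec9a, a receptor for dead cells, stayed at or below 4.73 on all 8 cDC2 arrays, activated ones included. Irf8, a transcription factor that both marks cDC1 and responds to IFN-gamma, read 12.27 and 11.67 in activated DKO cDC2, 12.06 and 11.73 in activated WT cDC2, 8.46 and 7.64 in resting DKO cDC2, 9.94 in cDC1, and 8.06 and 7.65 in resting WT cDC2. The summed level of the 8 cDC1 markers was 11.87 to 12.44 in activated DKO and 12.00 to 12.37 in activated WT, and 5 of the 8 were above 5.94 on some cDC2 array. In activated cells Irf8 carried nearly all of that sum.

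Of the receptor chains of the family, Il12rb2 rose and Il6st fell with activation, and the other 3 did not pass. Il12rb2, the signalling chain of the IL-12 receptor, read 9.77 and 10.08 in activated DKO cDC2, 9.34 and 10.04 in activated WT cDC2, 7.70 and 7.65 in resting DKO cDC2, 7.40 in cDC1, and 7.80 and 8.04 in resting WT cDC2. It rose by 2.25 ± 0.24 in DKO (limma adjusted p = 0.00481) and 1.77 ± 0.24 in WT (limma adjusted p = 0.0135). Il6st, the signalling chain gp130 that IL-27 shares with IL-6, read 9.24 and 9.04 in activated DKO, 9.50 and 8.98 in activated WT, 11.05 and 11.21 in resting DKO, 10.50 in cDC1, and 11.10 and 10.73 in resting WT. It fell by 1.99 ± 0.21 in DKO (limma adjusted p = 0.00481) and fell by 1.68 ± 0.21 in WT (limma adjusted p = 0.0108), where 7.9% and 6.57% of genes were called lower in DKO and WT. For both genes no activated array overlapped a resting cDC2 array, as in 11.4% of genes tested on the higher and 23.3% on the lower side.

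Il23r, the chain particular to the IL-23 receptor, read 6.05 and 6.96 in activated DKO, 5.90 and 7.24 in activated WT, 4.73 and 5.72 in resting DKO, 5.35 in cDC1, and 5.18 and 5.67 in resting WT. Its resting means all lay below 5.94, so it entered the test through the activated groups alone. Its mean difference of 1.21 did not pass (limma adjusted p = 0.0579) and passed with the replicate block (limma adjusted p = 0.000569). The fit with the block called 5656 of 10728 genes in either direction, so a call gained there is common. Il12rb1, shared by the receptors of IL-12 and IL-23, lay between 5.88 and 6.43 on all arrays, with a difference of 0.25 (limma adjusted p = 0.0572, and 0.0166 with the block). Il27ra, the chain particular to the IL-27 receptor, lay between 6.02 and 6.33, with a difference of -0.15 (limma adjusted p = 0.218). Of 5 receptor genes tested, 1 rose and 1 fell in the mean of both genotypes, where 10.6% of all genes were called higher and 21.7% lower (3 and 1 with the block, and 2 and 1 without WT resting replicate 2 or WT activated replicate 1), and 0 passed between genotypes or between cDC1 and cDC2.

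**Figure D4:**
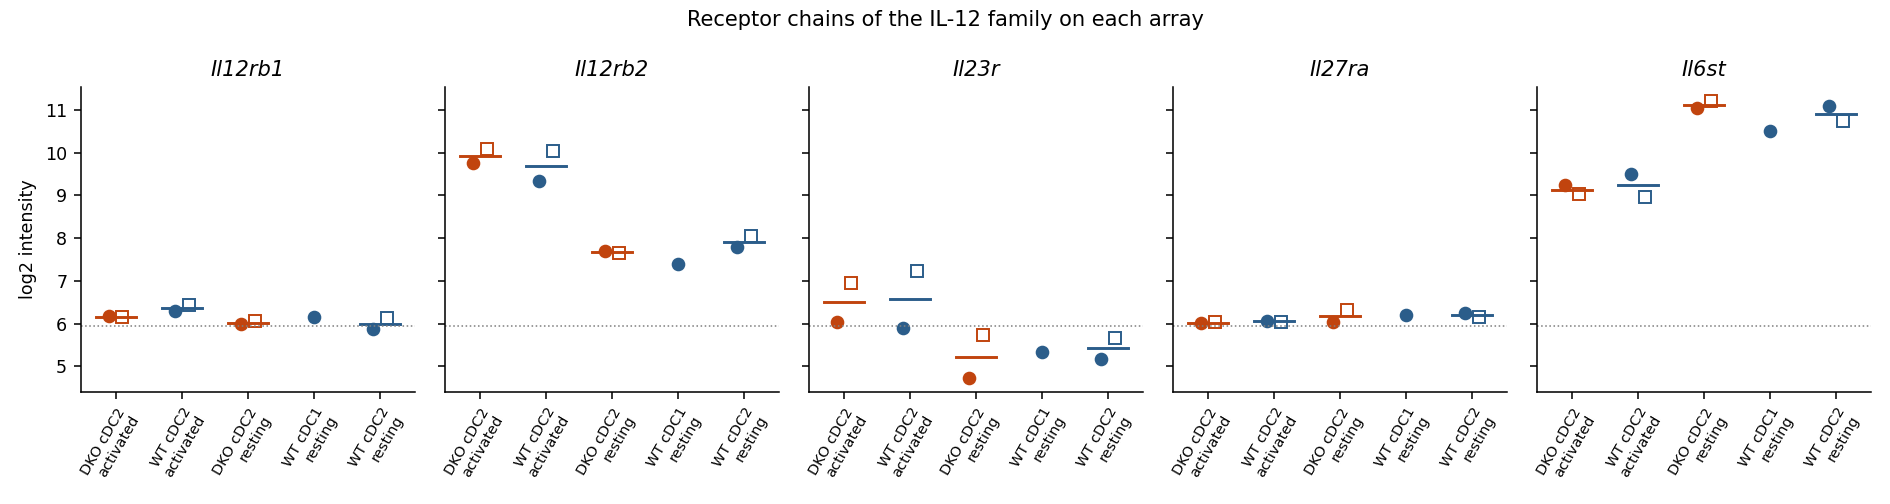
Log2 intensity of the 5 receptor genes on each array, by group, with filled circles for replicate 1, open squares for replicate 2, bars for means and a dotted line at 5.94. Il12rb2 is higher and Il6st lower on all activated cDC2 arrays than on all resting ones, and Il12rb1 and Il27ra stay close to the dotted line.

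Some genes of the signalling proteins behind those receptors and of the sensors of the stimulus also changed. In the mean of both genotypes, 3 of 7 kinase and STAT genes tested rose and 0 fell, with a list median of 0.31 against -0.08 over all genes tested, and 10.6% of all genes were called higher and 21.7% lower. They were Stat3, a main target of IL-23 and IL-27 receptors (0.71 ± 0.17, limma adjusted p = 0.0221), Stat5a (0.39) and Stat5b (0.35). That count was 0 without DKO resting replicate 1 or 2, WT resting replicate 1 or WT activated replicate 2, 1 without DKO activated replicate 1 or 2, and 2 without WT resting replicate 2. Among genes for sensing LPS and IFN-gamma, 2 of 10 rose and 3 fell (median -0.26). For a list of 10 these counts are near the 10.6% and 21.7% of all genes. Myd88, an adaptor of toll-like receptors, rose by 1.37 ± 0.17 (limma adjusted p = 0.00293), and Ly96, the partner of TLR4, by 0.52. Ifngr1, a chain of the IFN-gamma receptor, fell by 1.13 ± 0.11 (limma adjusted p = 0.00151) and Ticam1, the adaptor TRIF, by 0.56. Without any 1 of the cDC2 arrays except WT resting replicate 2, 1 of these genes rose, and over all arrays left out 2 to 4 fell. Tlr4 itself, the LPS receptor, lay at 5.02 in cDC1 and between 4.12 and 4.38 on the cDC2 arrays, under the filter throughout.

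Between resting cDC1 and cDC2, 4 of those 7 kinase and STAT genes were lower in cDC1 (median -1.03, with 6.56% of all genes called lower), and 2 without WT resting replicate 2. Stat4, the main target of the IL-12 receptor, was lower by -1.22 ± 0.26 (limma adjusted p = 0.0308) and Jak2, a kinase bound by that receptor, by -1.03 ± 0.18 (limma adjusted p = 0.0158). Stat5b and Stat5a stood at -1.31 and -1.14. Ifngr1 was higher in cDC1 by 1.51 ± 0.19 (limma adjusted p = 0.00590), and Ticam2 and Ticam1 were lower by -0.85 and -0.62. Without WT resting replicate 1, 0 of the sensing genes were lower by limma, and 1 was lower without any 1 of the activated arrays or without WT resting replicate 2.

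Of 25 transcription factors known to act on these genes, 9 rose and 5 fell with activation in the mean of both genotypes (median 0.33), where 10.6% of all genes were called higher and 21.7% lower, so that the share falling is near that of all genes. Irf8 rose by 3.98 ± 0.23 (15.8-fold, limma adjusted p = 0.000431), Nfkbiz, an IkappaB protein of the nucleus, by 2.32 ± 0.12 (limma adjusted p = 0.000325) and Irf1, a factor induced by IFN-gamma, by 2.23 ± 0.11 (limma adjusted p = 0.000308). Irf4 rose by 1.03 ± 0.16 (limma adjusted p = 0.00637). Leaving out 1 array left 4 to 10 rising and 2 to 5 falling. The fewest rising, 4, came without DKO resting replicate 2 or DKO activated replicate 2. It was 5 without WT resting replicate 1 or WT activated replicate 2 and 6 without DKO activated replicate 1. The number falling was 3 or fewer without any 1 of the cDC2 arrays. In resting cDC1 against cDC2, Irf8 was higher by 2.09 ± 0.41 (limma adjusted p = 0.0229), while 6 factors were lower (7.08% of all genes were called higher and 6.56% lower), led by Irf4 (-4.53 ± 0.28), Jun, an AP-1 subunit (-2.27 ± 0.15), and Nfat5 (-1.52 ± 0.13). Without WT resting replicate 1, 0 factors were higher and 3 lower, and without WT resting replicate 2, 0 were higher.

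Inhibitors of the cytokine genes or of their pathway rose in 9 of 17 tested and fell in 1 (median 0.69), beside 10.6% of all genes called higher and 21.7% lower. Socs3, a brake on receptors that use gp130, rose by 2.44 ± 0.18 (limma adjusted p = 0.000770), Cish, a further SOCS protein that entered the test through the activated groups alone, by 2.14 ± 0.12, Il10ra, a chain of the IL-10 receptor, by 2.09 ± 0.18 and Nfkbid, a nuclear IkappaB protein, by 1.22 ± 0.28 (limma adjusted p = 0.0194). Of these 17, 6 rose without DKO activated replicate 1, DKO activated replicate 2 or WT activated replicate 2, and 6 to 9 over all arrays left out, while 0 fell without DKO resting replicate 2, DKO activated replicate 1, WT resting replicate 1 or WT activated replicate 1. In cDC1, Tnfaip3, an enzyme that limits NF-kappaB signalling, was lower by -1.05 ± 0.15 (limma adjusted p = 0.00829). It was the 1 called of the 17, where 6.56% of all genes were called lower. With the block 6 of the 17 were lower, in a fit that called 3573 of 10728 genes in either direction.

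**Figure D5:**
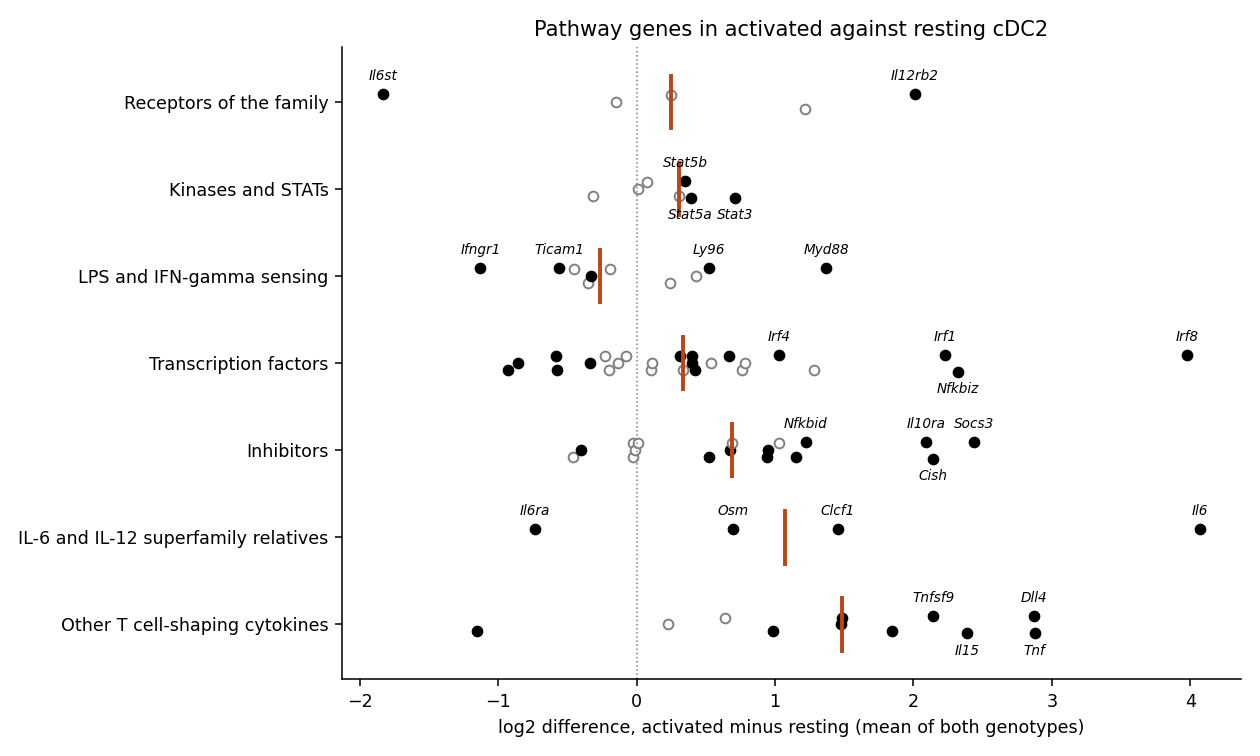
Log2 difference between activated and resting cDC2, mean of both genotypes, for each gene of 7 lists (rows), with filled points past the threshold, open points not past it, named genes in italics and a vertical bar at each list's median. Il6 at 4.07 and Irf8 at 3.98 lie farthest right, and Il6st at -1.83 lies farthest left.

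Cytokines near the family changed in the same comparison. Of 9 relatives in the IL-6 and IL-12 superfamily, 4 were tested, and each was called in the mean of both genotypes, where 10.6% of all genes were called higher and 21.7% lower. Il6, whose product uses gp130, rose by 4.07 ± 0.11 (16.8-fold, limma adjusted p = 3.07e-05), Clcf1 by 1.45 ± 0.28 and Osm by 0.70 ± 0.13, while Il6ra, a receptor chain, fell by 0.73 ± 0.10. Osm passed the filter only through activated arrays. Of 11 other genes that shape T cells (cytokines, ligands and the receptor gene Cd40), 8 rose and 1 fell (median 1.48). Of the 8, 2 entered the test through the activated groups alone, Il1a and Dll1. Tnf rose by 2.88 ± 0.45, the Notch ligand Dll4 by 2.87 ± 0.30, Il15 by 2.39 ± 0.59 and Tnfsf9, the ligand of a costimulatory receptor, by 2.14 ± 0.18 (limma adjusted p 0.00109 to 0.0262). The call of the falling gene, the Notch ligand Jag1 (-1.15), was lost without DKO resting replicate 1 or 2, DKO activated replicate 1, or WT activated replicate 1 or 2. Il15 read 7.16 and 9.68 on the resting WT arrays, of which replicate 2 stands apart. In cDC1 against cDC2 0 of these 11 genes passed by limma, and Dll4 had the smallest p (-1.68, limma adjusted p = 0.0850). With the block 2 passed, in a fit that called 3573 of 10728 genes in either direction.

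Between genotypes, 0 genes of the 7 lists passed by limma in either state or in their mean. A few did once the replicate number entered the fit as a block. Of all 10728 genes tested, that fit called 79 at rest, 61 after activation and 599 in the mean of both states. The calls named here are to be read beside those totals. Stat4 was higher in DKO by 0.74 in activated cells (limma adjusted p = 0.0394) and by 0.64 in the mean of both states (limma adjusted p = 0.00823). Atf3, a repressor of cytokine genes, was lower by -0.72 in activated cells (limma adjusted p = 0.0342), by -0.70 at rest (limma adjusted p = 0.0257) and by -0.71 in the mean (limma adjusted p = 0.00484). In the mean of both states Irak2, a kinase of toll-like receptor signalling, stood at -0.70 (limma adjusted p = 0.0297) and Cd70 at 1.11 (limma adjusted p = 0.0456), and the deleted genes Batf3 and Batf passed as well.

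The genes whose profiles were most like each member over the 9 arrays were found by Pearson correlation among tested genes spanning at least 1 log2 unit. These values are descriptions, since the 9 arrays share 5 groups. For Il12b they were Tmem140 (r = 0.948), Cln3 (r = 0.947) and Trim35 (r = 0.938), each also high in cDC1. Tmem140 read 10.58 in cDC1, 9.50 and 9.40 in activated DKO and 7.09 and 7.16 in resting DKO. For Il27 they were Pdgfc (r = 0.987), Batf2 (r = 0.981) and Twsg1 (r = 0.980). For Ebi3 they were Reps1 (r = 0.983), Gpr18 (r = 0.982) and Plcl2 (r = 0.982). Gpr18 read 8.41 and 9.31 in activated DKO and 8.33 and 9.55 in activated WT, with replicate 2 the higher in both, as for Ebi3. For the dim members they were Mybl2 (r = 0.944), Chil1 (r = 0.922) and Runx3 (r = 0.920) for Il12a, and Serpinb1b (r = 0.943), Dstn (r = 0.909) and Cdkn1b (r = 0.868) for Il23a. Among the members, Il27 and Ebi3 ran closest (r = 0.889). After them came the dim members with each other (r = 0.762), Il12a with Ebi3 (r = 0.757), Il12b with Il27 (r = 0.725), Il23a with Ebi3 (r = 0.673) and Il12b with Ebi3 (r = 0.618), and the other 4 pairs lay between 0.52 and 0.54.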

How the data were processed

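RNA of 9 samples was labelled with a kit for picogram amounts and hybridised to Affymetrix gene arrays, per the labels' protocols. The authors deposited 1 intensity per transcript cluster and array on a linear scale. The submitters' processing notes name RMA and Affymetrix Expression Console, without versions. Array medians were 53.4 to 55.6, and log2 values at the same rank differed by a median of 0.06, so a change in total RNA is not visible. The number of arrays limits the precision.

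Log2 was taken of each deposited intensity. Of 28853 clusters, 21789 carried 1 symbol, and genes with several clusters were read at the highest-mean one. Genes with a group mean above 5.94 (linear 61.3) entered limma's two-sided test (version 3.58.1, lmFit then eBayes, R version 4.3.3) with 5 group means and 4 residual degrees of freedom. The procedure was also run on simulated data with large shifts and independent noise on each array. Real arrays of the same replicate number deviate together, so that run does not show how the test behaves on them. Named are the 5 members, all receptors, up to 4 called members of each list with the largest change (up to 2 of smallest p where none passed), and the 3 most alike genes. Some further genes were named after their values were seen: Atf3, Irak2, Cd70 and Stat4 for their calls with the block, Jag1 as the 1 falling gene of its list, Il1a and Dll1 for how they entered the test, Cd40 as the receptor in its list, and Tlr4 as the LPS receptor. Macrophage and monocyte markers were likewise named after their values were seen, to show which genes follow their sums. Markers of plasmacytoid dendritic cells were also added after their values were seen. Members and lists were chosen with earlier results of these data known.

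Arrays with the same replicate number deviated together in all 6 pairs of cDC2 groups (r = 0.45 to 0.69 across genes), so the number was used as a block in an alternative fit; the labels do not say what it stands for. Other alternatives changed the filter, offset, scaling, cluster choice, moderation, samples fitted and single arrays. Il23a and Il27 have no promoter sequence shown, and proteins were not used here.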

Additional observations from a re-analysis of the deposited data

How the results depend on the processing

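Over the 3 tested genes of the family and 8 comparisons, 404 alternative values kept their direction and their side of the threshold, 10 lost the call, 4 gained it and 11 changed sign. For Il12a and Il23a, whose block and single-array alternatives in the fit of all genes were chosen after seeing the data, 146 kept both, 7 lost the call, 2 gained it and 3 changed sign. The rises of Il12b, Il27 and Ebi3 in the mean of both genotypes passed under every alternative run.

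With the replicate number as a block, the genes called numbered 3791 for activation in WT (1131 without the block), 4080 in DKO (1472) and 5656 in their mean (3472). For DKO against WT they were 79 at rest, 61 after activation and 599 in the mean of both states (2 in each without the block), and for cDC1 against cDC2 3573 (1464). The block raised Ebi3 in WT (1.78) past the threshold and Il23a in DKO (0.32), and changed no other call of a family gene. Ebi3 in WT also passed with the stricter filter (1.78, limma adjusted p = 0.0401) and with quantile normalization repeated (1.84, limma adjusted p = 0.0449). The stricter filter was 7.56, and Ebi3 entered that test only through activated DKO cDC2 (mean 7.80, against 7.45 in activated WT). That pass is therefore no separate support for the WT rise.

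With only the groups compared in the fit, 5 genes passed for activation in WT and 757 in DKO. In that fit 0 genes passed by limma for DKO against WT at rest (630 at an unadjusted p under 0.05), after activation (508) and for cDC1 against cDC2 (2159). Il12b in WT (2.27, limma adjusted p = 0.0880), Il27 in WT (1.36, limma adjusted p = 0.0643) and Il12b in cDC1 (3.09) lost their calls. That fit has fewer samples. With median-centring Il12b in activated DKO against WT stood at 0.0156 instead of -0.0017; the cause was not tested.

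Without 1 array at a time, counts ranged from 63 to 1131 for activation in WT, 217 to 1472 in DKO and 2128 to 3472 in their mean. They ranged from 0 to 6 for DKO against WT at rest, 0 to 2 after activation, 2 to 4 in the mean of both states, 0 to 0 for the interaction and 798 to 1155 for cDC1. Il12b ranged from 1.82 to 2.72 in WT activation, -1.19 to -0.29 in resting and -0.17 to 0.17 in activated DKO against WT. Il27 ranged from 1.26 to 1.45 in WT activation. Ebi3 ranged from 1.19 to 2.37 in WT and 1.82 to 2.57 in DKO activation, -0.31 to 0.18 in resting, -0.23 to 0.95 in activated and -0.15 to 0.44 in the mean of DKO against WT, -0.17 to 1.01 in the interaction and -0.18 to 0.30 in cDC1. Il12a ranged from 0.24 to 0.47 in the mean of activation, -0.16 to 0.12 in resting DKO against WT and -0.14 to 0.14 in cDC1, and Il23a from 0.19 to 0.29 in the mean of activation.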

Other observations

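Il23a had the same deposited intensity, 36.5, on both resting DKO arrays and on the cDC1 array, and Il12a had the same intensity, 26.5, on activated and resting WT cDC2 replicate 1.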
